A study of Mus musculus with 14 samples.

Results

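Thalamic identity genes were examined in hippocampal RNA of neonatal mice, and 10 genes of the 36118 in the deposited table made up the set. They were Shox2 (ENSMUSG00000027833), Tcf7l2 (ENSMUSG00000024985), Lef1 (ENSMUSG00000027985), Slc17a6 (ENSMUSG00000030500), Prkcd (ENSMUSG00000021948), Rora (ENSMUSG00000032238), Gbx2 (ENSMUSG00000034486), Zic1 (ENSMUSG00000032368), Ntng1 (ENSMUSG00000059857) and Lhx9 (ENSMUSG00000019230). The set was chosen by gene symbol after differences between WT and Gsdmd knockout (KO) libraries had been seen in these data. The levels of the 10 genes by genotype are therefore a description, with no p value, and for these genes tests are given only for exposure, for the interaction of genotype and exposure, and for relations among WT libraries. Genotype q values are printed for genes of other lists, which were also drawn up with these data known, and are no independent evidence.

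The study asked how loss of Gsdmd, which encodes the pore-forming protein of pyroptosis, bears on the response of the neonatal brain to high oxygen. The 14 libraries came from 4 groups, 1 library per mouse. WT-RA (4 mice) and WT-O2 (4 mice) were wild type, and KO-RA (3 mice) and KO-O2 (3 mice) were homozygous for a CRISPR-made Gsdmd deletion, from heterozygous matings. The strain is labelled C57/BL6, and the study's methods give C57BL/6N. The O2 groups were kept at 85% oxygen and the RA groups in room air from postnatal day 1 to day 14, and all hippocampi were sampled on day 15. Mice are numbered here within their group, so that WT-RA mouse 1 is GSD398.

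The libraries held 27272270 to 28257496 estimated counts each. Gsdmd had 41 to 63 counts per WT library and 22 to 42 per KO library, so its count did not separate every KO library from every WT library. The knockout allele is a small deletion within an exon, and its bearing on this count was not tested. The paper reports that GSDMD protein was undetectable in KO brains and that qRT-PCR measured no transcripts there. WT-O2 mouse 4 (GSD408) carries hyperoxia in its title and room air in its treatment field, and it was analysed as WT-O2. WT mice have lower identification numbers than KO mice, and genotype cannot be told apart from whatever differed between these number ranges. Genes typical of hippocampus, such as Prox1 and Zbtb20, were counted in every library.

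As background, thalamic neurons are glutamatergic relay cells that arise from the diencephalon, next to which the hippocampus lies in the neonatal skull. Their identity is set up by homeodomain and Wnt-responsive transcription factors and is marked later by the vesicular glutamate transporter VGLUT2, where most cortical and hippocampal pyramidal neurons rely on VGLUT1. Several of the genes are not restricted to thalamus, and Rora, Zic1, Prkcd and Lhx9 are also used by other neurons. In bulk tissue, fewer cells of a type and less RNA per cell cannot be told apart.

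The promoters of Shox2, Gbx2 and Tcf7l2 are shown because these genes had the largest fitted log2 differences between WT and KO groups. Each is the 250 bases before a RefSeq gene start on mouse build GRCm38.p6, read 5′ to 3′ on the gene's strand. The deposited counts were made on GRCm39, so these positions do not carry over to it. Capitals mark the TCF/LEF motif CTTTGA and the homeodomain core TAATT on either strand. The stretches are chr3:66981772-66982021 (minus strand) for Shox2, chr1:89931177-89931426 (minus strand) for Gbx2 and chr19:55741560-55741809 (plus strand) for Tcf7l2.
Shox2: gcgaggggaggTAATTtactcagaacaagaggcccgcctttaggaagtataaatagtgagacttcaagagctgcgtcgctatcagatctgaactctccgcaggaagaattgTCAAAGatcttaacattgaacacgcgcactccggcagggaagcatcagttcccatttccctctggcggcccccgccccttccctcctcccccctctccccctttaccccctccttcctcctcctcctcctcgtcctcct
Gbx2: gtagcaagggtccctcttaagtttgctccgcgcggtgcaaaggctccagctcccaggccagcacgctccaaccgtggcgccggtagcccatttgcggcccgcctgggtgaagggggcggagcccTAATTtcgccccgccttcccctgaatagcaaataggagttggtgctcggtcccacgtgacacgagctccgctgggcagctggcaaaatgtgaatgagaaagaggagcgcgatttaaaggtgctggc
Tcf7l2: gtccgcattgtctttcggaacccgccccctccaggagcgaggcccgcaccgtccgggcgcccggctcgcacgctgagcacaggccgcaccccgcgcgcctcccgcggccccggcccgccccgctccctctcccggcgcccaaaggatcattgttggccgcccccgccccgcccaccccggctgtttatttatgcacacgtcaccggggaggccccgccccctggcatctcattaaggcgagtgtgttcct

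All 10 genes were matched to 16 such windows. The CTTTGA motif was in 3 of the 16 windows, from Shox2, Lef1 and Prkcd, and in 13.8% of all 32851 promoter windows. In Shox2 it began 139 bases before the start, on the opposite strand. The TAATT core was in 9 of the 16 windows, from 8 of the 10 genes, and in 25% of all windows. For Tcf7l2 it was not in the window shown above but in another, chr19:55895071-55895320 (plus strand), which is not shown. The ROR motif AGGTCA was in none of the 16 and in 14% of all. No occurrence of one motif overlapped another. These matches are a description of the letters only.

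Expression is given in CPM, the read count of a gene scaled to the size of its library, with the TMM method applied to the library sizes. The developmental transcription factors are described first. Shox2, a homeodomain factor of the developing thalamus, was at 27, 7.26, 0.177 and 5.92 CPM in WT-RA mice 1 to 4. In WT-O2 mice 1 to 4 it was at 2.93, 2.9, 11.3 and 21.5 CPM. The KO libraries had 1, 1 and 2 Shox2 counts in KO-RA and 5, 2 and 2 counts in KO-O2. WT-RA mouse 3, with 5 counts, was as low as the highest KO library, and the other WT libraries had at least 80. The 6 KO libraries held 13 Shox2 counts together, with an exact 95% Poisson interval of 6.92 to 22.2 that covers counting error only.

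Gbx2, a homeodomain factor needed for thalamic differentiation, was at 5.38, 1.55, 0.283 and 0.538 CPM in WT-RA mice 1 to 4. In WT-O2 it was at 0.879, 0.609, 1.91 and 2.95 CPM. The KO-RA libraries had 1, 6 and 0 counts and the KO-O2 libraries had 2, 1 and 1. The lowest WT library had 8 counts, just above the highest KO library. Shox2 and Gbx2 passed the filter on low counts through the WT libraries, of which 7 had at least 10 counts of each gene, against 0 of the KO libraries. The other 8 genes had at least 10 counts in all 14 libraries.

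Tcf7l2 encodes a transcription factor of Wnt signalling that stays on in postmitotic thalamic neurons. It was at 114, 52.4, 8.9 and 22.4 CPM in WT-RA and at 29.8, 44.3, 51.5 and 64.9 CPM in WT-O2. The KO-RA libraries were at 6.65, 8.19 and 6.69 CPM and the KO-O2 libraries at 7.62, 7.08 and 8.48 CPM. No WT library overlapped the KO range, though WT-RA mouse 3 came close to it. Lef1, a factor of the same family, was at 28.5, 12.7, 6.01 and 9.51 CPM in WT-RA and at 9.45, 6.6, 13.7 and 18 CPM in WT-O2. It was at 6.8, 5.91 and 5.62 CPM in KO-RA and at 5.66, 5.54 and 7.65 CPM in KO-O2, so WT-RA mouse 3 and WT-O2 mouse 2 fell within the KO range.

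Rora encodes a nuclear receptor of the ROR family. Its level was 176, 63.5, 42.1 and 58.8 CPM in WT-RA and 65.7, 38, 75.4 and 118 CPM in WT-O2. In KO-RA it was 28.5, 25.5 and 29.8 CPM and in KO-O2 28.9, 25.4 and 34.3 CPM, below every WT library. Zic1, a zinc finger factor of the dorsal neural tube, was at 106, 52.4, 13.4 and 32.3 CPM in WT-RA and at 40.5, 43.1, 61.7 and 80.1 CPM in WT-O2. It was at 14.6, 34.1 and 21.7 CPM in KO-RA and at 33.2, 29.7 and 32.6 CPM in KO-O2. For Zic1 the room air groups overlapped and the hyperoxia groups did not.

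Lhx9, a LIM homeodomain factor, was the exception. Its level was 16.1, 12.3, 5.37 and 8.18 CPM in WT-RA and 12.4, 13.4, 13.6 and 15.7 CPM in WT-O2. In KO-RA it was 16.5, 12.6 and 13.6 CPM and in KO-O2 13.2, 14.9 and 14.7 CPM. The WT and KO ranges overlapped, with WT-RA mice 2, 3 and 4 and WT-O2 mouse 1 below every KO library.

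The remaining genes encode products of the differentiated neuron. Slc17a6, which encodes VGLUT2, was at 131, 62.2, 25.5 and 42.4 CPM in WT-RA and at 66.2, 65.7, 89.9 and 119 CPM in WT-O2. It was at 19.3, 31.6 and 37.4 CPM in KO-RA and at 32.4, 27.1 and 21.8 CPM in KO-O2, and only WT-RA mouse 3 fell within the KO range. Prkcd, which encodes protein kinase C delta, was at 204, 49.4, 26 and 46.2 CPM in WT-RA and at 33.7, 20.4, 81.3 and 152 CPM in WT-O2. Its KO levels, 33, 38.6 and 32.8 CPM in KO-RA and 41.8, 39.5 and 36.2 CPM in KO-O2, lay inside the WT range. Ntng1, which encodes the axonal adhesion protein netrin-G1, was at 105, 48.3, 19.9 and 34.4 CPM in WT-RA and at 47.9, 36.4, 57.9 and 85 CPM in WT-O2. Its KO levels were 20.1, 25 and 22.6 CPM in KO-RA and 18.3, 25.5 and 18.7 CPM in KO-O2. Only WT-RA mouse 3 fell within that range.

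**Figure D1:**
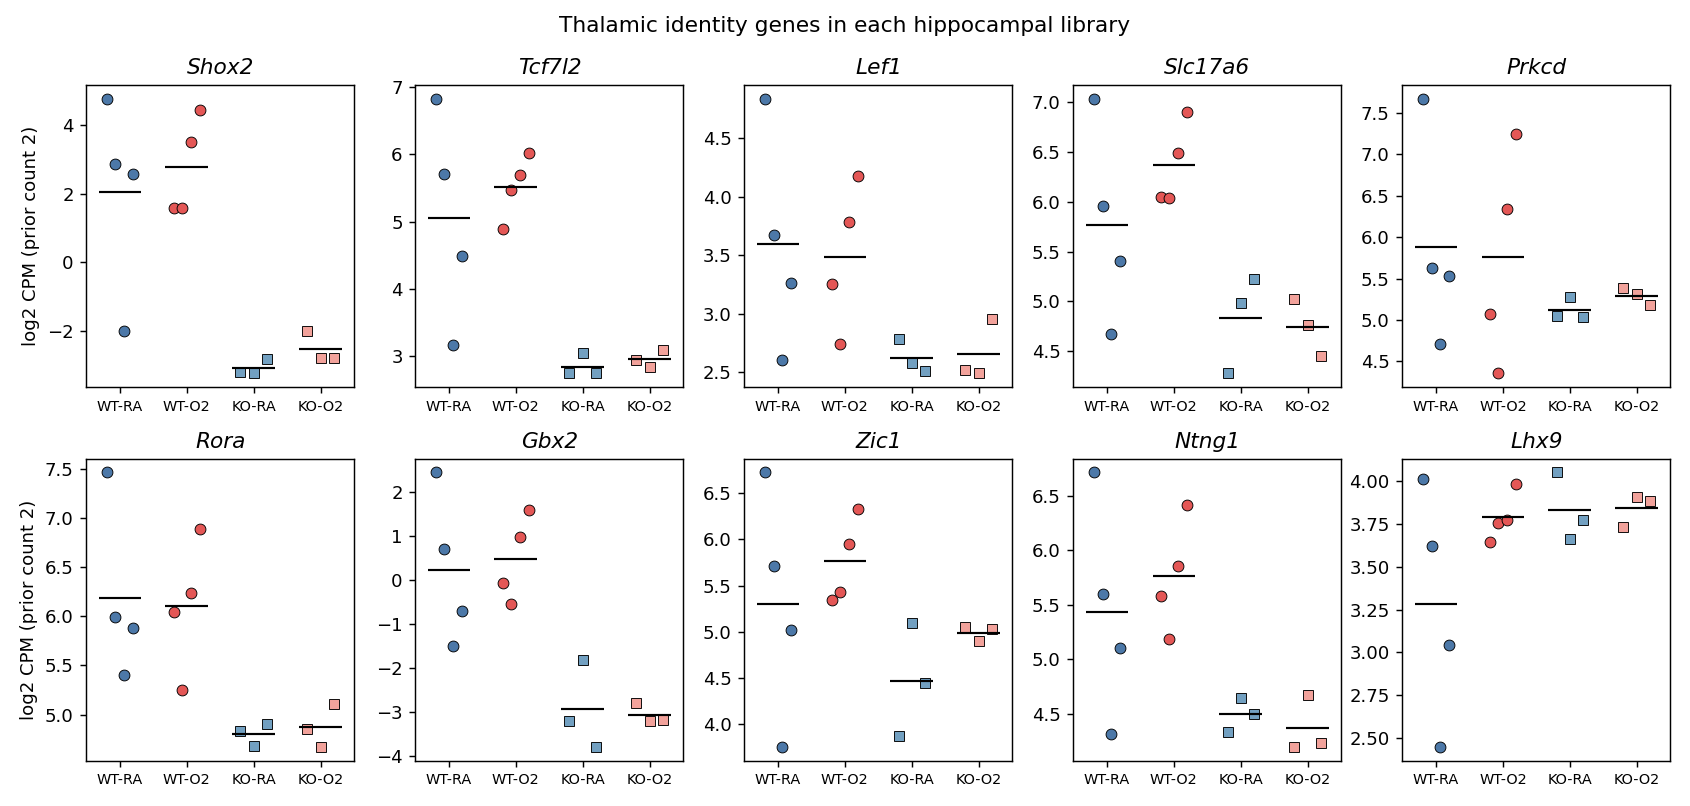
Each panel shows 1 gene, with 1 point per library in the 4 groups and the group mean as a line. The vertical axis is log2 CPM with a prior count of 2. WT points (circles) are widely spread, from 0.177 to 27 CPM for Shox2, while KO points (squares) lie closer together.

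The genotype difference was fitted on the log2 scale in all 14 libraries and is described without p values because it chose the genes. Here and below, the SE of a log2 value was derived from the F statistic of the edgeR quasi-likelihood test. In KO-RA vs WT-RA, the log2 difference was -7.59 ± 1.68 (SE) for Shox2, -4.46 ± 1.15 for Gbx2 and -2.78 ± 0.62 for Tcf7l2. It was -1.61 ± 0.43 for Rora, -1.22 ± 0.66 for Prkcd, -1.21 ± 0.43 for Lef1, -1.20 ± 0.42 for Ntng1, -1.15 ± 0.42 for Slc17a6, -1.11 ± 0.49 for Zic1 and 0.44 ± 0.25 for Lhx9. Calls required a log2 difference of at least 0.32 in size, together with an unadjusted p under 0.05 and a Benjamini-Hochberg q under 0.1, from the quasi-likelihood test of edgeR. By this rule, applied here only to describe genes that the same values had chosen, 6 of the 10 passed as lower, namely Shox2, Gbx2, Tcf7l2, Rora, Lef1 and Ntng1, beside 6.7% of all 16637 genes tested. Of these, Lef1 and Ntng1 each passed in only 10 of 21 refits, which used other tools, filters or groupings, or left 1 library out. The groups did not overlap for 4 of the 10, beside 11% of all genes. The median over the 10 was -1.22, beside -0.0067 over all genes, and it was -0.60 without WT-RA mouse 1. Without KO-RA mouse 1, 2 of the 10 passed as lower, and without WT-RA mouse 1 Lhx9 passed as higher in KO (0.74). Calls over all genes, in either direction, were 1738 in the main fit and 1076 without KO-RA mouse 1. Shox2 and Gbx2 entered the fit through their WT counts alone, and nothing about the 10 genes is read from these counts.

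In KO-O2 vs WT-O2 the log2 difference was -6.40 ± 1.5 (SE) for Shox2, -4.90 ± 1.28 for Gbx2 and -2.62 ± 0.62 for Tcf7l2. It was -1.65 ± 0.43 for Slc17a6, -1.45 ± 0.43 for Ntng1, -1.33 ± 0.43 for Rora, -0.93 ± 0.43 for Lef1, -0.87 ± 0.66 for Prkcd, -0.82 ± 0.48 for Zic1 and 0.05 ± 0.25 for Lhx9. Here 6 of the 10 passed as lower, beside 4.35% of all genes, and 7 of the 10 did not overlap, beside 10.5%. The median over the 10 was -1.39, beside -0.0089 over all genes. The count of 6 was 3 without WT-O2 mouse 4, 3 with that mouse placed in room air, 3 without KO-O2 mouse 1 and 2 without either of the other KO-O2 mice. Calls over all genes, in either direction, were 1142 in the main fit and 675 to 861 in these refits. These counts too are a description from which nothing is read. The fitted values of Shox2 and Gbx2 rest on 0 to 6 counts per KO library, and their size depends on the fit.

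Exposure to hyperoxia gave no call among the 10 genes in either genotype. In WT-O2 vs WT-RA, 0 of the 10 were called by edgeR's quasi-likelihood test, beside 0.643% of all genes. Of the 10, 0 had an unadjusted p below 0.05, beside 12.2% of all genes, and DESeq2 also called 0. The log2 change was -0.062 for Shox2, with a 95% interval from -1.75 to 1.62 (edgeR q = 0.985). It was -0.050 for Tcf7l2 (-1.11 to 1.01, edgeR q = 0.982). The change was 0.40 for Lhx9 (-0.099 to 0.90, edgeR q = 0.535), whose WT-O2 mean was 13.8 ± 1.39 CPM (SD, n = 4) against 10.5 ± 4.7 CPM in WT-RA. Slc17a6 changed by 0.39 (-0.42 to 1.19, edgeR q = 0.739). The other 6 genes lay between -0.28 (Gbx2) and 0.15 (Zic1), with edgeR q from 0.855 (Lef1) upward. These WT intervals use 1 estimate of the spread for all 4 groups and may be too narrow. For Tcf7l2 the pooled within-group SD of log2 CPM was 1.16 in WT and 0.151 in KO libraries. For Shox2 it was 2.27 in WT and 0.359 in KO libraries. That KO value comes from 1 to 5 counts per library, where the prior count of 2 holds log2 CPM close together.

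WT libraries differed from each other within a group. The median change over the 10 in WT was -0.056, beside -0.0058 over all genes, and it was 0.78 without WT-RA mouse 1, -0.41 without WT-RA mouse 3, -0.38 without WT-O2 mouse 4, and -0.46 with that mouse counted as room air. The sign of the exposure value in WT mice thus turned with single libraries.

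Among the KO mice, exposure called 0 of the 10 by edgeR, beside 0.012% of all genes, and 0 by DESeq2. Of the 10, 0 had an unadjusted p below 0.05, beside 4.86% of all genes. Tcf7l2 changed by 0.11 (95% interval -1.34 to 1.55, edgeR q = 0.997) and Zic1 by 0.44 (-0.68 to 1.55, edgeR q = 0.997). Slc17a6 changed by -0.12 (-1.09 to 0.84) and Lhx9 by 0.0059 (-0.56 to 0.57), with edgeR q of 0.997 and 0.999. These intervals use 1 estimate of the spread for all 4 groups, although the KO libraries lay closer together than the WT libraries. For Shox2, 9 counts in KO-O2 against 4 in KO-RA gave a ratio of 2.3 with an exact 95% counting interval of 0.641 to 10.2. For Gbx2, 4 counts against 7 gave 0.584 (0.125 to 2.3).

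The interaction asks whether the exposure change differed between KO and WT mice. It was called for 0 of the 10 genes by edgeR, beside 0% of all genes, of which 673 had an unadjusted p below 0.05, with 0 of the 10 at an unadjusted p below 0.05 and 0 by DESeq2. The largest values among the 8 genes counted in every library were -0.51 for Slc17a6 (95% interval -1.76 to 0.75) and -0.39 for Lhx9 (-1.15 to 0.36), both at an edgeR q of 1. Differences in response inside these intervals were compatible with these data, and the size of difference that the interaction test could detect was not computed.

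**Figure D2:**
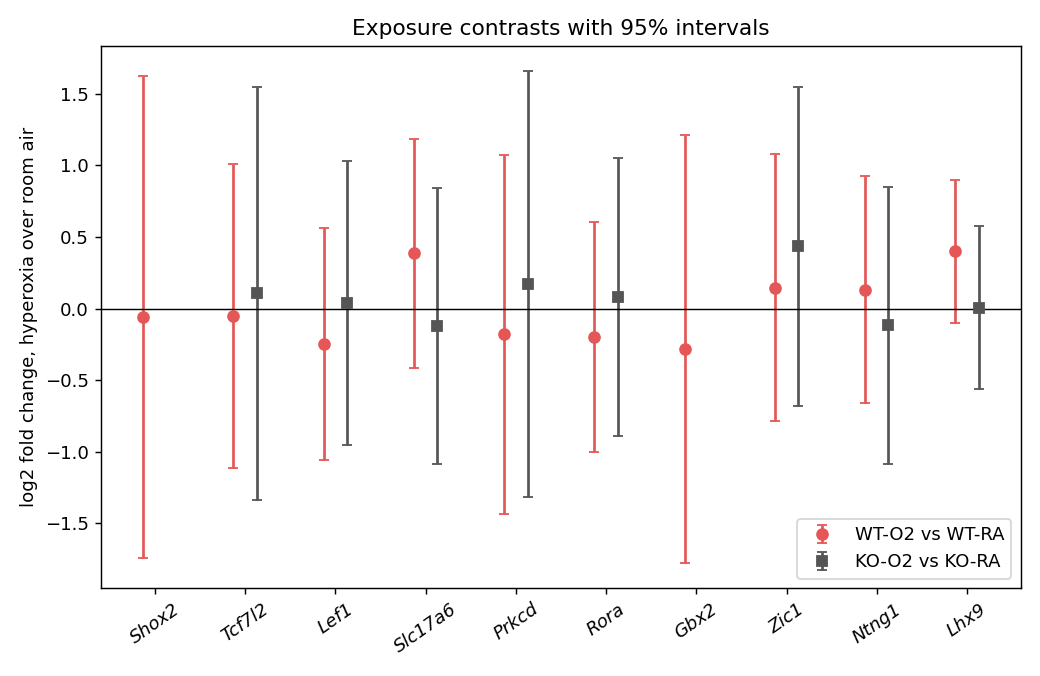
Points are log2 fold changes of hyperoxia over room air in WT (circles) and KO (squares) mice, and bars are 95% intervals derived from the edgeR F statistic. Every interval crosses 0, and Shox2 and Gbx2 are left out in KO mice, where they had 4 to 9 counts per group.

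The 10 genes varied together from one WT mouse to the next. WT-RA mouse 1 was the highest of the 8 WT libraries for 10 of the 10 genes, and WT-O2 mouse 4 was second for 10 of the 10. WT-RA mouse 3 was the lowest for 8 and among the lowest 2 for 10. The summed level of the 10 was 913, 362, 148 and 261 CPM in WT-RA mice 1 to 4 and 309, 271, 458 and 677 CPM in WT-O2. In KO libraries the sum ran from 146 to 182 CPM. The room air WT mice alone thus covered a range that reached down to the KO mice, and in WT-RA mouse 3, 4 genes lay within the KO range, 3 below it and 3 above it.

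The spread within WT groups was larger than for most genes. The within-group SD of log2 CPM, pooled over WT-RA and WT-O2, was 2.27 for Shox2, 1.41 for Gbx2, 1.28 for Prkcd and 1.16 for Tcf7l2. Of all genes tested, 99.9% had a smaller value than Shox2, and 91% a smaller one than Lhx9, the least variable of the 10. The median was 0.869 over the 10 genes and 0.153 over all genes. In KO libraries these medians were 0.213 and 0.126.

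Over the 8 WT libraries, the 45 pairs of genes had a median Pearson r of 0.915, from 0.587 (Prkcd and Lhx9) to 0.984 (Tcf7l2 and Zic1), and 25 pairs exceeded 0.9. Over the 6 KO libraries the median was 0.033, from -0.838 to 0.804. KO pairs with Shox2 or Gbx2 rest on 0 to 6 counts per library. From the lowest to the highest KO library the other genes spanned only 1.27-fold (Tcf7l2) to 2.33-fold (Zic1). With so narrow a range, the KO values of r cannot show whether the genes varied together there. These are descriptions over libraries of both exposures.

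**Figure D3:**
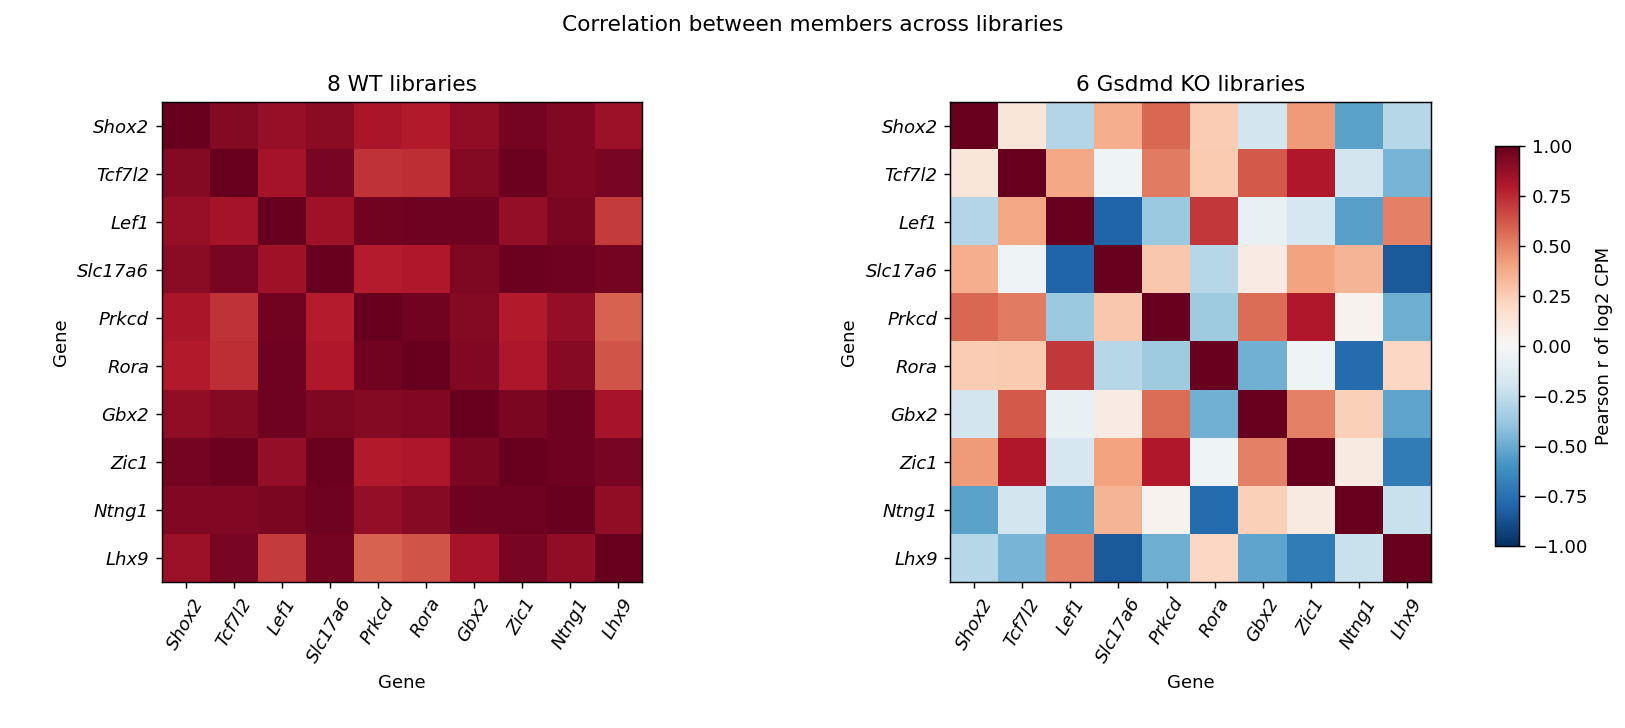
Each square is the Pearson r of log2 CPM between a pair of genes, over the 8 WT libraries (left) and the 6 KO libraries (right), on a colour scale from -1 to 1. All WT squares are positive, from 0.587 upward, and KO squares take both signs. KO squares of Shox2 or Gbx2 rest on 0 to 6 counts per library, and the other genes varied over a narrow range in KO.

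Shox2 was compared with the other 9 genes and with 7 lists of genes over the 8 WT libraries, giving 16 relations with Benjamini-Hochberg adjustment over them. All 16 share the same Shox2 values, and the permutations exchanged libraries across both exposures. The genes and lists were drawn up with these data known, so these p values are no independent evidence. Shox2 and Tcf7l2 gave r = 0.915 (exact permutation p = 0.00231, adjusted 0.00923) and Spearman's rho = 0.881 (exact permutation p = 0.00724, adjusted 0.0145). Without the 2 libraries farthest on the Shox2 axis, WT-RA mice 1 and 3, r was 0.612. Zic1 gave r = 0.957 (exact permutation p = 0.000818, adjusted 0.00655), rho = 0.905 (exact permutation p = 0.00456, adjusted 0.0104) and r = 0.806 without those 2. Lef1 gave r = 0.871 (exact permutation p = 0.00424, adjusted 0.0113) and rho = 1 (exact permutation p = 5e-05, adjusted 0.000397), with r = 0.93 without those 2. Lhx9 gave r = 0.853 (exact permutation p = 0.0134, adjusted 0.0239) and rho = 0.786 (exact permutation p = 0.0279, adjusted 0.0447), but only r = 0.361 without them, so its relation rests on those libraries.

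The other lists followed Shox2 unequally, each scored as the mean standardized log2 CPM. A list of 14 other thalamic genes gave r = 0.851 (exact permutation p = 0.00737, adjusted 0.0166), rho = 1 (exact permutation p = 5e-05, adjusted 0.000397) and r = 0.966 without those 2 libraries. The 8 genes of the habenula, the small epithalamic nucleus beside the thalamus, gave r = 0.026 (exact permutation p = 0.95, adjusted 0.95) and rho = 0.214 (exact permutation p = 0.619, adjusted 0.619). Striatal genes gave r = 0.462 (exact permutation p = 0.238, adjusted 0.272) and rho = 0.571 (exact permutation p = 0.151, adjusted 0.186). Hippocampal genes gave r = 0.267 (exact permutation p = 0.479, adjusted 0.511) and rho = 0.214 (exact permutation p = 0.619, adjusted 0.619).

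Deep cortical genes went the other way, with r = -0.762 (exact permutation p = 0.0281, adjusted 0.0346) and rho = -0.762 (exact permutation p = 0.0368, adjusted 0.0535). Choroid plexus genes gave r = 0.781 (exact permutation p = 0.0263, adjusted 0.0346) and rho = 0.548 (exact permutation p = 0.171, adjusted 0.195). Glial and vascular genes gave r = 0.736 (exact permutation p = 0.0281, adjusted 0.0346) and rho = 0.667 (exact permutation p = 0.0831, adjusted 0.111). Without WT-RA mice 1 and 3 these 3 values of r were -0.082, 0.223 and 0.495, so the relations rest on those libraries.

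Among 14480 other genes, those most like the 10 in WT libraries, by Pearson r with their mean standardized log2 CPM over 8 libraries, were Clmn (0.988), Vangl1 (0.988), Amotl1 (0.982), Inpp4b (0.982) and Cacna2d4 (0.982). In all, 172 genes exceeded 0.9. Vangl1 ranged from 6.43 to 22.3 CPM in WT and from 6.3 to 8.04 CPM in KO libraries. Amotl1, which is also one of the other thalamic genes described next, ranged from 32.1 to 129 CPM in WT and from 30 to 36.9 CPM in KO libraries. Clmn ranged from 70 to 209 CPM in WT, and its KO libraries lay inside that range.

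The 14 other thalamic genes, a list also drawn up with these data known, were described in the same genotype comparisons. In KO-RA vs WT-RA, 14 of 14 had negative values, beside 51.5% of all genes. Of these, 8 were called lower, beside 6.7% of all genes, and the median log2 difference was -0.87. In KO-O2 vs WT-O2, 14 of 14 were again negative, beside 52.1% of all genes. Here 5 were called lower, beside 4.35%, and the median was -0.84. Foxp2, a forkhead factor of thalamic and also striatal neurons, differed by -3.03 ± 0.28 (SE, edgeR q = 4.32e-05) in room air and by -2.97 ± 0.28 (edgeR q = 8.99e-05) in hyperoxia. Foxp2 was at 14.8 to 32.4 CPM in WT and 1.89 to 5.37 CPM in KO libraries, without overlap. Within WT-RA it ran only from 25.7 to 32.4 CPM, where Shox2 ran from 0.177 to 27 CPM. The part of striatal neurons in its level was not tested. Ramp3, a receptor activity-modifying protein, differed by -2.82 ± 0.40 (edgeR q = 0.000717) and -2.09 ± 0.40 (edgeR q = 0.00625). Tnnt1 and Synpo2 were called lower in both comparisons as well, with values from -2.65 to -2.85. Their calls were lost in room air without WT-RA mouse 1 or any 1 KO-RA mouse, and in hyperoxia without WT-O2 mouse 3 or 4 or any 1 KO-O2 mouse.

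These counts depended on single libraries. In room air the 8 became 5 without WT-RA mouse 1 and 3 without any 1 of the KO-RA mice. Calls over all genes, in either direction, were 1738 in the main fit, 1670 without WT-RA mouse 1 and 1076 to 1474 without a KO-RA mouse. In hyperoxia the 5 became 2 without WT-O2 mouse 3, WT-O2 mouse 4, KO-O2 mouse 1 or KO-O2 mouse 3, 3 without KO-O2 mouse 2, 9 without WT-RA mouse 1 and 8 without WT-RA mouse 3. There the calls over all genes were 1142 in the main fit, 675 to 899 where the 5 fell, and 1335 and 1334 where it rose. Exposure called 0 of the 14 in WT by edgeR, with 1 (Ramp3, log2 change -0.72, edgeR q = 0.385) at an unadjusted p below 0.05, and 0 in KO, with 0 at that p. Of all genes, 12.2% in WT and 4.86% in KO were at that p. DESeq2 called 0 in both.

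The genes were next set beside relatives from the same families. Slc17a7, which encodes VGLUT1, differed by 0.045 ± 0.10 (edgeR q = 0.855) in KO-RA vs WT-RA and by 0.30 ± 0.10 (edgeR q = 0.107) in KO-O2 vs WT-O2. Ntng2, the netrin-G1 relative, differed by 0.17 and 0.26 (edgeR q = 0.49 and 0.316). Lhx2, a LIM homeodomain relative of Lhx9 known from hippocampal development, was higher in KO by 0.59 ± 0.088 (edgeR q = 0.000891) and 0.43 ± 0.088 (edgeR q = 0.00988). Gbx1 was called lower in hyperoxia (-2.82, edgeR q = 0.0414) and had a room air value of -1.54 (edgeR q = 0.194). These values rest on few counts, with group totals for Gbx1 of 6 in KO-O2 and 11 in KO-RA, against 61 in WT-O2 and 44 in WT-RA. Among protein kinase C relatives, Prkch was called lower in both (-1.63 and -1.88, edgeR q = 0.0534 and 0.0435), and so was Prkcq (-0.47 and -0.47, edgeR q = 0.0678 and 0.0962). In room air both calls were lost without WT-RA mouse 1 or any 1 KO-RA mouse, and that of Prkcq also without WT-RA mouse 2 or 4. In hyperoxia both, with that of Gbx1, were lost without WT-O2 mouse 4 or KO-O2 mouse 2. There the Prkch call was also lost without KO-O2 mouse 1, and that of Gbx1 without KO-O2 mouse 3. The Prkcq call in hyperoxia held in 9 of 21 refits. It was also lost with DESeq2 size factors and without WT-RA mouse 2, WT-O2 mouse 2 or 3, or any 1 KO mouse.

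These refits used other tools, filters or groupings, or left 1 library out. Of all 19 relatives, 4 were called lower and 3 higher in room air, where 6.7% of all genes were called lower and 3.75% higher. In hyperoxia 3 were called lower and 3 higher, where 4.35% of all genes were called lower and 2.51% higher. Rorb, the ROR family relative of Rora, was called lower by exposure in WT mice, from 19.5 ± 2.66 to 13.5 ± 2.11 CPM (SD, n = 4), a log2 change of -0.53 ± 0.12 (SE, edgeR q = 0.094). This call held in 7 of 21 refits (other tools, filters or groupings, or 1 library left out) and was lost without WT-RA mouse 1, 2 or 3, WT-O2 mouse 1, 2 or 3, or any 1 KO mouse. Rorb had an interaction value of 0.79 (edgeR q = 1).

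Tcf7l2 and Lef1 are nuclear effectors of Wnt signalling through beta-catenin. Ctnnb1, which encodes beta-catenin, differed between genotypes by -0.020 (edgeR q = 0.896) in room air and -0.13 (edgeR q = 0.253) in hyperoxia. The Wnt target Axin2 differed by -0.20 (edgeR q = 0.107) and -0.15 (edgeR q = 0.305). Nkd1, a Wnt feedback inhibitor, and Lgr5, a receptor for R-spondins, were called lower in room air (-0.60 each, edgeR q = 0.00697 and 0.0535) and had hyperoxia values of -0.31 and -0.22 (edgeR q = 0.168 and 0.595). Sp5 had positive values, 0.53 and 1.00 (edgeR q = 0.443 and 0.147). The room air call of Lgr5 was lost without WT-RA mouse 4 or KO-RA mouse 2. In all 2 of 8 Wnt readout genes were called lower in room air, beside 6.7% of all genes, and 0 of 8 in either direction in hyperoxia. There 3 of the 8 had an unadjusted p below 0.05, beside 18.7% of all genes, and DESeq2 also called 0. Tcf7, another gene of the TCF/LEF family, was called lower in room air (-0.33, edgeR q = 0.0658) but not in hyperoxia (0.015, edgeR q = 0.966), and Tcf7l1 had values of -0.15 and 0.16. The call of Tcf7 held in 11 of 21 refits and was lost by DESeq2, with no filter on low counts, and without WT-RA mouse 1 or 2 or any 1 KO-RA mouse.

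Genes of neighbouring regions and other cell types also differed between genotypes, and their counts stand beside 6.7% of all genes called lower and 3.75% called higher in room air, and 4.35% and 2.51% in hyperoxia. All 10 striatal genes were called lower in both comparisons, with summed levels of 412 to 953 CPM in WT and 163 to 271 CPM in KO libraries. Penk differed by -2.81 and -3.04, Adora2a by -2.79 and -2.99, and Drd1 by -2.70 and -2.67, with edgeR q of at most 0.000162. Of the 10 hippocampal genes, 9 were called higher in KO in room air and 4 in hyperoxia. Their summed levels were 602 to 988 CPM in WT and 1261 to 1591 CPM in KO libraries. Emx2 was higher in both, by 1.11 ± 0.13 (edgeR q = 0.000179) and 0.80 ± 0.13 (edgeR q = 0.0024). Dsp, Lct and Prox1 were called in room air (1.29, 1.16 and 1.11) and had hyperoxia values of 0.92, 0.94 and 0.85, and these 3 calls were lost without KO-RA mouse 1. The part of these lists in the level of the thalamic identity genes was not tested.

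Of 6 deep cortical genes, 4 were called lower in KO in room air and 3 in hyperoxia, with summed levels of 193 to 455 CPM in WT and 212 to 237 CPM in KO libraries. On the log2 scale Cplx3 differed by -3.15 and -1.88, Ccn2 by -1.85 and -1.05, Rprm by -1.40 and -1.16, and Tbr1 by -0.84 (called) and -0.052 (not called). In hyperoxia the call of Rprm held in 10 of 21 refits and that of Ccn2 in 15, and both were lost without WT-O2 mouse 2, 3 or 4 or KO-O2 mouse 2 or 3. That of Rprm was also lost without WT-RA mouse 2, WT-O2 mouse 1, KO-RA mouse 2 or 3, or KO-O2 mouse 1, and in room air without KO-RA mouse 1. The room air call of Tbr1 held in 14 of 21 refits and was lost without WT-RA mouse 2 or 3 or any 1 KO-RA mouse. Cplx3 was also called lower by exposure in WT mice (-1.40, edgeR q = 0.0679) and in 14 of 21 refits, but not without WT-RA mouse 2 or 3 or WT-O2 mouse 1, 2 or 3. Of 12 glial and vascular genes, the myelin genes Mog and Mbp were called lower in both comparisons, with log2 values from -1.93 (Mog, room air) to -1.02 (Mbp, hyperoxia). In hyperoxia these calls were lost without WT-O2 mouse 2, 3 or 4 or KO-O2 mouse 2 or 3, and Gfap was called higher in room air (0.45). The summed level of that list was 5007 to 16445 CPM in WT and 3676 to 5811 CPM in KO libraries.

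Of 8 habenula genes, 2 (Gng8 and Chrna3) were called lower in room air and 0 in hyperoxia, where 4 had an unadjusted p below 0.05, beside 18.7% of all genes. DESeq2 called 3 lower in each comparison. Chrna3 was named after its value was seen (-0.91, edgeR q = 0.0972). Gng8 was called in room air (-2.13, edgeR q = 0.0826) but not without WT-RA mouse 1 or 2 or any 1 KO-RA mouse or KO-O2 mouse 3, and Pou4f1 (-1.73 and -2.65), Chrnb4 (-1.72 in room air) and Gpr151 (-0.60 and -1.39) were not. Their summed level was 55.1 to 118 CPM in WT and 58 to 68.6 CPM in KO libraries, and the highest WT libraries were WT-O2 mouse 2 and WT-RA mouse 2, not those highest in thalamic identity genes. Of 6 choroid plexus genes 0 were called in either comparison, and DESeq2 also called 0. None had an unadjusted p below 0.05, beside 23.5% of all genes in room air and 18.7% in hyperoxia. Ttr, Folr1, Kcnj13 and Aqp1 differed by 0.0097 to 0.43, and the list's sum ran from 37.6 to 3417 CPM in KO libraries. No gene of these lists was at 0 in any library. The part of each of these lists in the result was not tested.

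**Figure D4:**
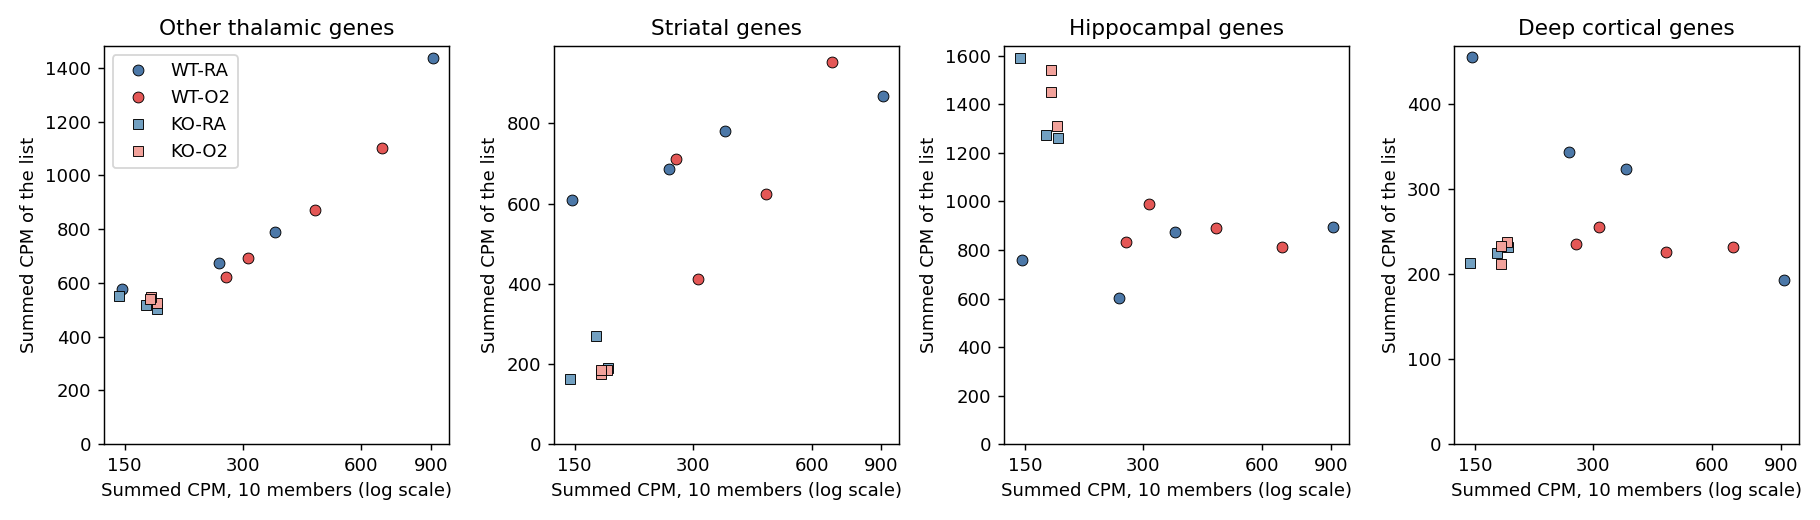
Each point is a library, with the summed CPM of the 10 thalamic identity genes on a horizontal log axis and the summed CPM of another list (other thalamic, striatal, hippocampal or deep cortical genes) on the vertical axis. Other thalamic genes are higher where these are higher among the WT libraries (circles), striatal sums are 412 CPM or more in WT and at most 271 in KO (squares), and hippocampal sums are 1261 CPM or more in KO.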

How the data were processed

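Hippocampal polyA RNA of 14 mice was sequenced as 150 bp paired-end reads. The deposited values are estimated counts for each gene, which the authors made with Kallisto and tximport on GRCm39 with Ensembl annotation, as the study's methods state; the submitters' processing notes name kallisto, DESeq2 and GRCm39, without versions. How tximport scaled the counts is not given in the sources used here. Libraries held 27272270 to 28257496 estimated counts, which were rounded. Replicates are separate mice. Symbols were given to 35825 of 36118 genes.

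Of these, 16637 genes passed edgeR's filterByExpr function. TMM factors scaled the libraries. All 14 libraries entered 1 quasi-likelihood fit (edgeR 4.0.16, R 4.3.3) without covariates, each group having its own coefficient, in place of the authors' DESeq2, which (version 1.42.0) was an alternative. Calls, by two-sided tests, required a log2 difference of at least 0.32 in size, an unadjusted p under 0.05 and a Benjamini-Hochberg q under 0.1. Log2 CPM used a prior count of 2. The fit was tested on simulated data.

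The genes and the lists were chosen with earlier results of these data known. All 10 thalamic identity genes are named. From each other list the 4 genes with the largest absolute mean of both genotype differences are named, as are listed genes called by exposure and Slc17a7, Ntng2, Lhx2, Tcf7, Tcf7l1, Ctnnb1 and Axin2, and the 5 genes most like the set; some genes that meet this rule are not reported here. Alternatives were DESeq2, its size factors or library size, no filter or at least 10 counts in every library, only the groups compared, a fold of 1.5, a q below 0.05, GSD408 as room air, and each library left out. Promoter sequences came from RefSeq on GRCm38.p6, and protein sequences were not used here. Intervals on counts cover counting error only.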

Additional observations from a re-analysis of the deposited data

Results flagged for a closer look

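In 20 sets of 4 WT libraries (10 genes in 2 groups), 2 values stood far from the other 3 by Dixon's ratio at its 95% critical value of 0.829, where chance alone marks about 1 in 20. Both were the highest WT-RA value and both came from WT-RA mouse 1. Prkcd was at 204 CPM there (ratio 0.869), and Rora at 176 CPM (ratio 0.841). Groups of 3 libraries were not examined in this way.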

How the results depend on the processing

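Under the alternatives tried, no thalamic identity gene was called for exposure or the interaction in any of 612 recomputed values, while 44 of these values, none of them called, had the other sign. The cause was not tested. With single mice left out, the log2 change ran, among the genes whose sign turned, as follows in WT-O2 vs WT-RA: Shox2 -0.82 to 1.12, Tcf7l2 -0.40 to 0.77, Lef1 -0.51 to 0.35, Prkcd -0.85 to 0.83, Rora -0.51 to 0.44, Gbx2 -0.77 to 1.00, Zic1 -0.17 to 0.79 and Ntng1 -0.14 to 0.74. In KO-O2 vs KO-RA it ran: Lef1 -0.13 to 0.12, Slc17a6 -0.35 to 0.089, Rora -0.042 to 0.18, Gbx2 -1.29 to 1.23 and Lhx9 -0.077 to 0.13. In the interaction it ran: Tcf7l2 -0.66 to 0.51, Lef1 -0.31 to 0.56, Prkcd -0.65 to 1.03, Rora -0.36 to 0.60, Gbx2 -1.72 to 1.51, Zic1 -0.35 to 0.66 and Ntng1 -0.85 to 0.024. With mouse GSD408 as room air, the WT change was -0.0411 for Slc17a6, -0.23 for Zic1 and -0.30 for Ntng1, and the interaction was 0.19 for Gbx2 and 0.18 for Ntng1. With library size in place of TMM, Lhx9 changed by -0.0032 in KO.

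Genotype counts moved too. With single mice left out, thalamic identity genes called lower numbered 2 to 8 in room air and 2 to 7 in hyperoxia, and other thalamic genes 3 to 12 and 2 to 9. Fewer samples remained in each fit, and calls over all genes, in either direction, moved as well. They ran from 1076 to 1929 in room air, beside 1738 in the main fit, and from 675 to 1335 in hyperoxia, beside 1142. With GSD408 as room air, the hyperoxia counts were 3 and 2, where 766 of all genes were called in either direction. In hyperoxia, other thalamic genes called lower were 11 with only the 2 groups compared, where 1386 of all genes were called, and 2 at a q below 0.05. In WT mice, exposure called 107 of all genes, against 144 by edgeR without a filter, 304 by DESeq2, which was likewise run on 26308 genes and used its own filtering, 20 with only the 2 groups and 6 with GSD408 as room air, and in KO mice 2, against 6 by edgeR without a filter, 13 by DESeq2, 4 with only the 2 groups and 0 with GSD408 as room air. Requiring 10 counts in every library left out Shox2 and Gbx2. The interaction could not be fitted from only 2 groups. No scaling moved the median of all genes by more than 0.1. No paired analysis was possible because the labels give no replicate numbers that pair mice across groups. At this depth Shox2 and Gbx2 in KO libraries are limited by counting.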
